A study of Drosophila melanogaster with 12 samples.

Results

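Cells transfected with wild-type Fne (FneWT) were compared with cells transfected with wild-type Elav (ElavWT) in S2R+, an established cell line of Drosophila melanogaster whose cells resemble hemocytes, the blood cells of the fly. The comparison takes 4 of the 12 libraries of the series, 2 per group, and sets FneWT against ElavWT within each replicate number. It covers the 9291 of 13777 genes whose mean over these 4 libraries was at least 1 CPM (counts scaled to a fixed library total). No animal, allele or Cre driver is involved: all groups are the same line, and FneWT and ElavWT share the transfection reagent and differ in the protein named in their labels. Untreated cells and cells with wild-type Rbp9 (Rbp9WT), 2 libraries each, entered the fit to estimate the spread and are given for reference. The labels do not say whether the untreated cells were mock transfected, which promoter drives the constructs, what share of the cells took them up or whether replicates came from separate cultures, so p-values measure the spread between these libraries, which may be technical.

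Elav, Fne (found in neurons) and Rbp9 form the fly ELAV/Hu family. These proteins bind U-rich RNA through several RNA recognition motifs and act in neurons on splicing, on the choice of poly(A) site and on the stability of transcripts. In wild-type neurons Elav is a nuclear protein, while Fne is mostly cytoplasmic. The comparison asks which transcript levels differ between the 2 proteins when each is placed in a cell type that is not neuronal. RNA was read at its 3' ends. In such bulk samples fewer cells expressing a gene and less RNA per cell cannot be told apart.

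The libraries held 7093593 and 4694825 reads in ElavWT replicates 1 and 2, and 8047518 and 5497197 in FneWT, so 3 reads equal 0.373 to 0.639 CPM. The rRNA-named genes took 5.91% and 18.0% of the reads in ElavWT and 3.77% and 24.8% in FneWT. The median gene was 0.13 log2 units higher in FneWT in replicate 1 and 0.02 lower in replicate 2 (a difference of -0.016), and 0.04 higher over both. Every log2 difference below is relative to that median. Of 33 hemocyte markers, the phagocytic receptor gene crq measured 253, 163, 356 and 169 CPM in ElavWT replicates 1 and 2 and FneWT replicates 1 and 2, the peroxidasin gene Pxn 65.1, 61.6, 128 and 44.4 CPM, and the GATA factor gene srp 71.8, 27.1, 88.0 and 48.8 CPM. The clotting factor gene Hml stayed at or under 4.85 CPM and the prophenoloxidase gene PPO1 was at 0 in all 4, so the hemocyte character of the line is partial.

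The levels of the family's own genes bear on the labels. fne measured 97.4 and 48.0 CPM in FneWT replicates 1 and 2. It measured 49.8 and 4.47 CPM in ElavWT, against 6.67 and 1.91 CPM in untreated cells and 114.8 and 2.79 CPM in Rbp9WT. Within each replicate number fne was thus higher in FneWT than in ElavWT, but ElavWT replicate 1 lay above FneWT replicate 2. The log2 difference of 2.02 ± 1.21 (SE) did not pass (limma adjusted p = 0.785). In replicate 1 fne was higher in Rbp9WT than in FneWT, so its level does not check the FneWT label. The call for fne turned on the libraries in the fit: it passed with the 4 compared libraries alone (SE 0.41, adjusted p = 0.0114) and without Rbp9WT replicate 1 or 2 (adjusted p = 0.000768 and 8.44e-05), at the same log2 difference.

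elav measured 42.7 and 59.7 CPM in FneWT and 29.2 and 26.6 CPM in ElavWT. Untreated cells held 24.9 and 37.3 CPM and Rbp9WT 33.3 and 32.7 CPM. Both FneWT libraries were above both ElavWT libraries, the opposite of what the labels name, with a log2 difference of 0.79 ± 0.30 that did not pass (limma adjusted p = 0.414). The span of elav overlaps the noncoding RNA enrr and, on the other strand, the arginase gene arg. The level of arg was 410 CPM in replicate 1 of ElavWT and 7.24 CPM in replicate 2, against 4.10 and 6.73 CPM in FneWT, 22.7 and 11.9 CPM in untreated cells and 7.08 and 4.18 CPM in Rbp9WT. ElavWT replicate 1 alone stood high, and whether those reads belong to arg or to elav was not tested. No source used here names the 3' end carried by the constructs, and reads from a construct without the gene's own 3' end would not count to it, so elav does not check the ElavWT label. ElavWT and FneWT stand throughout for the libraries so labelled, and every direction given here rests on those labels. Rbp9 was low in both groups, at 7.46 and 2.55 CPM in FneWT and 6.20 and 2.34 CPM in ElavWT (log2 difference 0.12 ± 0.66, adjusted p = 0.982). Untreated cells held 3.34 and 2.35 CPM and Rbp9WT 713 and 58.8 CPM, so the transfected gene registered in the table in the Rbp9WT libraries.

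**Figure D1:**
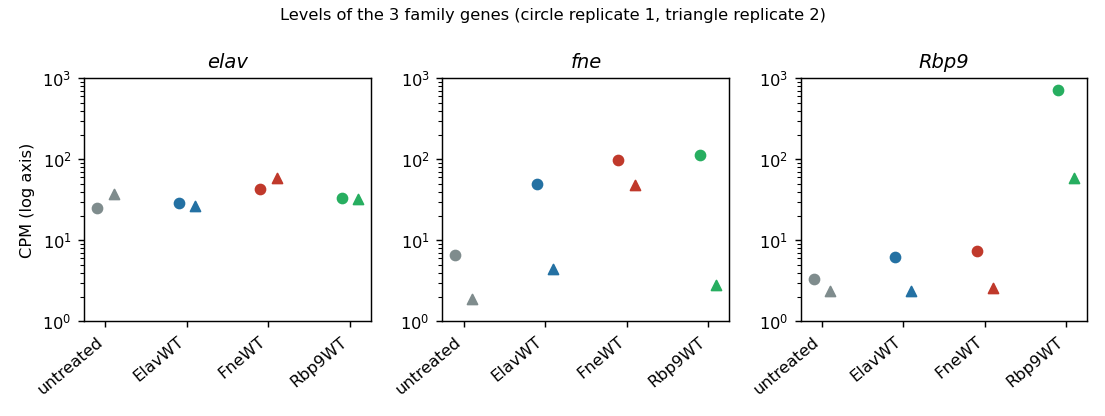
Level of elav, fne and Rbp9 (CPM, log axis) in each of the 8 libraries, by group, with circles for replicate 1 and triangles for replicate 2. elav lies higher in both FneWT libraries than in both ElavWT libraries, and fne is at 49.8 CPM in ElavWT replicate 1 and at 4.47 CPM in replicate 2.

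Few genes separated the 2 proteins. With limma and the replicate number as a term, 18 of 9291 genes passed (0.194%), of which 17 were higher in FneWT (0.183%) and 1 was lower (0.0108%). All 18 differed in the same direction in both replicates, which the paired fit favours. The 17 rises ran from 1.39 to 2.93 log2 units, with a median of 2.29. In 16 of the 17 both FneWT libraries were above both ElavWT libraries, beside 8.0% of all tested genes. The 17 were chosen for a difference between these same libraries, so that count is a description only. Of the 17, 3 (mthl15, SmydA-5 and loh) had too few reads in ElavWT to enter the test without their FneWT level. The other 14 did not depend on it in this way. mthl15 and SmydA-5 had to be higher in FneWT to be tested, while loh would also have entered at an equal level. Of all genes 6.48% had both FneWT libraries below. An unadjusted p under 0.05 was reached by 7.79% of genes, 523 higher in FneWT (5.63%) and 201 lower (2.16%). Without the replicate number as a term no gene passed, with 65 at an unadjusted p under 0.05. edgeR on the recovered reads passed 24 genes with that term, and 0 without it (83 at an unadjusted p under 0.05). DESeq2 with the term passed 32.

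**Figure D2:**
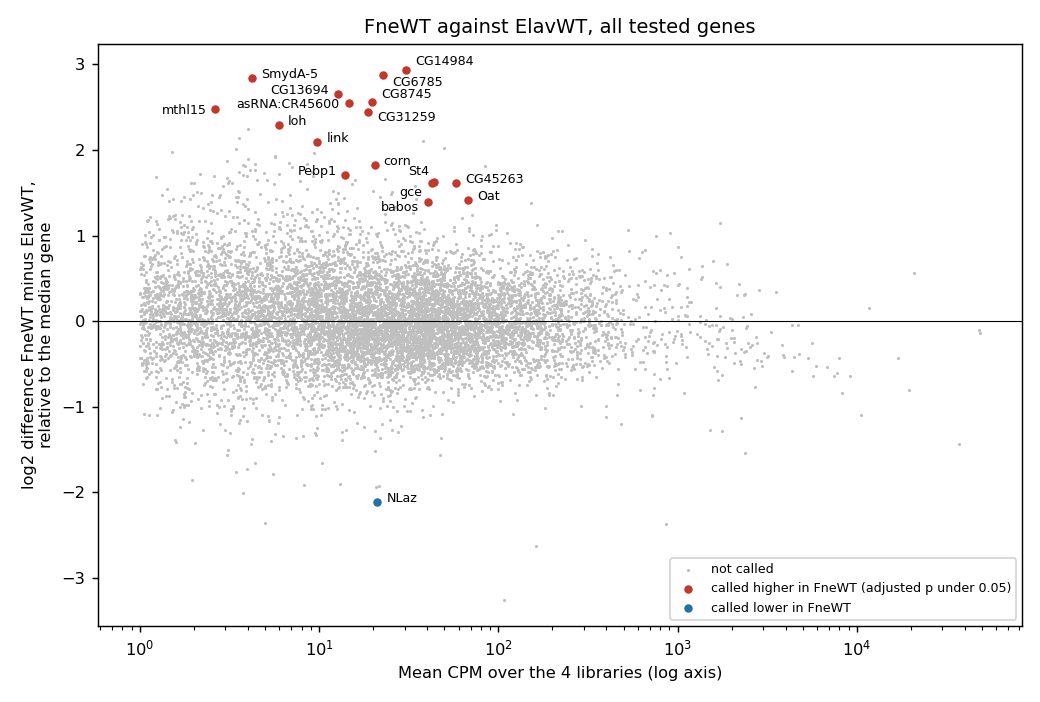
Log2 difference FneWT minus ElavWT relative to the median gene (vertical axis) against the mean CPM over the 4 libraries (log axis) for the 9291 tested genes. The 17 genes that passed higher in FneWT are red and NLaz, the single gene that passed lower, is blue.

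The calls depend on single libraries. Without FneWT replicate 1 the count was 1 gene, and without FneWT replicate 2 it was 2, of which 0 and 1 were among the 18. It became 91 without ElavWT replicate 1 (12 of the 18 among them) and 13 without ElavWT replicate 2 (6 of the 18). It rose to 136 and 132 without untreated replicate 1 or 2, each time with all 18 included.

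The largest difference was that of CG14984 (FBgn0035480, chromosome 3L, 3951193 to 3952550, minus strand). It measured 90.0 and 21.6 CPM in FneWT replicates 1 and 2 and 7.89 and 2.77 CPM in ElavWT. Untreated cells had 1.11 and 1.18 CPM and Rbp9WT 12.7 and 6.18 CPM. Both FneWT libraries thus stood above all 6 others, and the log2 difference between FneWT and ElavWT was 2.93 ± 0.44 (SE; limma adjusted p = 0.00226). CG6785 (FBgn0032399, chromosome 2L, 12041054 to 12045200, minus strand) followed with 62.1 and 19.6 CPM in FneWT and 7.47 and 1.70 CPM in ElavWT, a log2 difference of 2.87 ± 0.45 (adjusted p = 0.00399). Its level in Rbp9WT lay between, at 24.5 and 9.36 CPM, and in untreated cells at 0.834 and 1.47 CPM.

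A pair of these genes had almost no reads in ElavWT. mthl15, which encodes a receptor of the methuselah-like family of G protein-coupled receptors, had 0 reads in both ElavWT libraries and in both untreated libraries. It measured 7.83 and 2.73 CPM in FneWT and 12.7 and 2.79 CPM in Rbp9WT. Against a floor of 3 reads per library its mean in FneWT was at least 9.94-fold higher than in ElavWT (limma adjusted p = 0.0449). SmydA-5, of the SET and MYND domain family of putative protein methyltransferases, had 1 read in the 2 ElavWT libraries together and 127 in FneWT. It measured 13.5 and 3.27 CPM in FneWT and 12.9 and 2.19 CPM in Rbp9WT, and 0.139 and 0.147 CPM in untreated cells. The ratio of summed, depth-scaled reads was 111, with an exact interval of 19.5 to 4400 at the 95% level that covers counting error only (limma adjusted p = 0.0189). Both genes entered the test only through their FneWT levels, so their adjusted p-values are no independent support for a difference.

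The more abundant genes that rose included Oat, gce and St4. Oat, which encodes the mitochondrial enzyme ornithine aminotransferase, measured 156 and 48.8 CPM in FneWT and 43.8 and 22.2 CPM in ElavWT. Untreated cells held 100.3 and 29.1 CPM and Rbp9WT 111 and 42.6 CPM, so ElavWT was the lowest of the 4 groups within each replicate number (log2 difference of FneWT from ElavWT 1.41 ± 0.30, limma adjusted p = 0.0276). gce, which encodes a bHLH-PAS receptor of juvenile hormone, measured 85.2 and 42.6 CPM in FneWT and 31.0 and 10.9 CPM in ElavWT. In Rbp9WT it measured 82.6 and 32.9 CPM and in untreated cells 23.0 and 19.2 CPM (1.61 ± 0.32, adjusted p = 0.0189). The sulfotransferase gene St4 measured 98.5 and 35.8 CPM in FneWT and 31.3 and 10.2 CPM in ElavWT (1.63 ± 0.34, adjusted p = 0.0276), from 1.88 and 0.587 CPM in untreated cells.

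Pebp1, a member of the phosphatidylethanolamine-binding protein family, measured 28.8 and 15.8 CPM in FneWT and 6.77 and 4.69 CPM in ElavWT. Untreated cells were close to ElavWT, at 8.13 and 7.05 CPM, and Rbp9WT was highest at 37.0 and 22.7 CPM (log2 difference between FneWT and ElavWT 1.71 ± 0.35, limma adjusted p = 0.0227).

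loh and corn rose from lower levels. loh, whose secreted ADAMTS-like protein belongs to the matrix of the heart, measured 16.8 and 4.73 CPM in FneWT and 1.83 and 0.426 CPM in ElavWT. Untreated cells, at 0.764 and 0.441 CPM, were near the ElavWT level, and Rbp9WT was near the FneWT level at 14.6 and 4.58 CPM (2.29 ± 0.49, limma adjusted p = 0.0387). Like mthl15 and SmydA-5, loh needed its FneWT level to enter the test, though a level equal to that in ElavWT would have sufficed. corn, which encodes a microtubule-binding protein, measured 51.7 and 13.8 CPM in FneWT and 12.97 and 3.195 CPM in ElavWT (1.83 ± 0.36, adjusted p = 0.0189), with FneWT replicate 2 only slightly above ElavWT replicate 1. Rbp9WT held 47.0 and 11.4 CPM of corn.

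The remaining genes that rose are little characterised. asRNA:CR45600 (FBgn0267160, chromosome 3R, 15136985 to 15140121, minus strand), annotated as an antisense RNA, measured 37.0 and 15.1 CPM in FneWT, 4.37 and 2.13 CPM in ElavWT and at most 0.147 CPM in untreated cells (2.55 ± 0.44, limma adjusted p = 0.00836). It overlaps CG6912, CG3984 and CG3987. CG6912 and CG3984 did not move with it, at log2 differences of 0.12 ± 0.31 and 0.06 ± 0.36, and CG3987 stayed at or under 1.97 CPM in all 8 libraries. CG13694 measured 34.8 and 11.5 CPM in FneWT and 3.67 and 1.28 CPM in ElavWT (2.66 ± 0.47, adjusted p = 0.00937). ND-15, a respiratory chain gene that overlaps CG13694 on the other strand, had a log2 difference of -0.14 ± 0.29.

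CG8745, CG31259 and link rose too. CG8745, a predicted aminotransferase gene, measured 42.5 and 23.6 CPM in FneWT and 11.7 and 1.28 CPM in ElavWT, a ratio of 3.63 in replicate 1 and 18.5 in replicate 2. CG31259 showed a like contrast between replicates, with 46.1 and 15.6 CPM against 12.4 and 0.852 CPM and ratios of 3.72 and 18.4. link measured 22.4 and 10.6 CPM in FneWT, 4.65 and 1.49 CPM in ElavWT and 20.7 and 10.8 CPM in Rbp9WT. Their log2 differences were 2.57 ± 0.51, 2.45 ± 0.46 and 2.09 ± 0.45 (limma adjusted p = 0.0432, 0.0165 and 0.0387).

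The more abundant CG45263 and babos differed less. CG45263 measured 139.5 and 37.1 CPM in FneWT and 45.1 and 10.7 CPM in ElavWT, and babos 76.3 and 42.6 CPM against 26.6 and 15.8 CPM. For CG45263 the groups overlapped, as FneWT replicate 2 lay below ElavWT replicate 1, while for babos they did not. The log2 differences were 1.62 ± 0.31 and 1.39 ± 0.30 (limma adjusted p = 0.0165 and 0.0382).

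**Figure D3:**
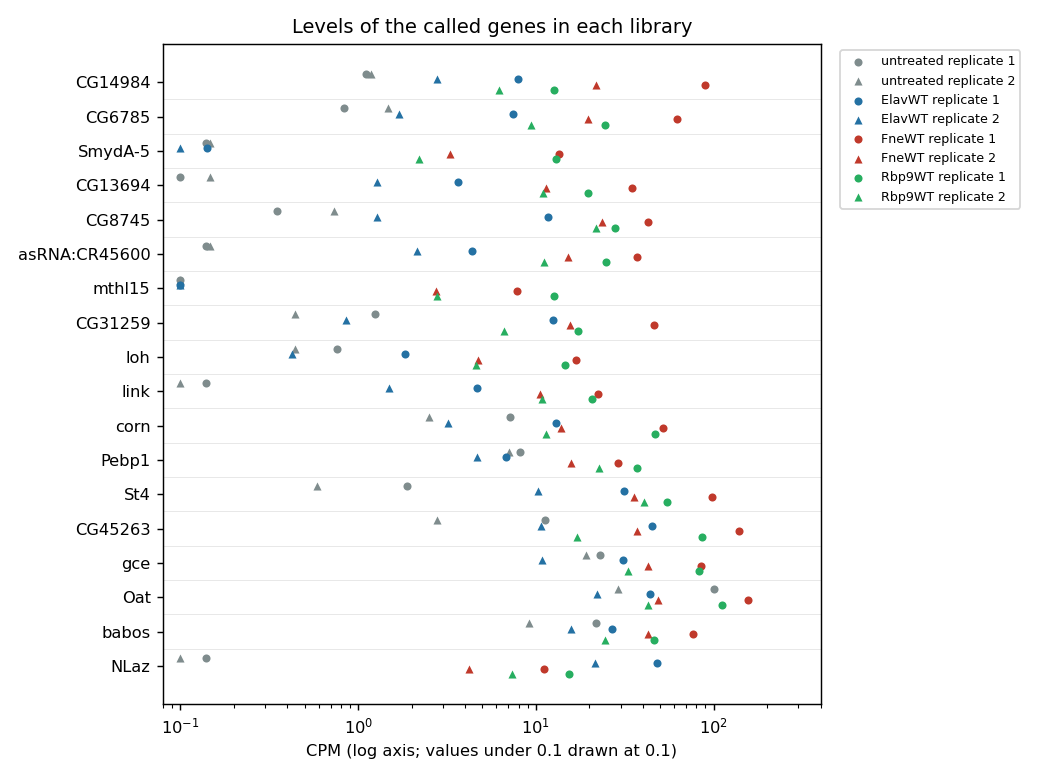
CPM (log axis) of the 18 genes that passed, in each of the 8 libraries, ordered by log2 difference, with circles for replicate 1 and triangles for replicate 2 and values under 0.1 drawn at 0.1. Replicate 1 is above replicate 2 in FneWT for each gene, and in 16 of the 17 genes that rose both FneWT libraries are above both ElavWT libraries.

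NLaz was the single gene that passed lower in FneWT. It encodes Neural Lazarillo, a secreted lipocalin related to apolipoprotein D (FBgn0053126, chromosome 2L, 1359837 to 1361821, minus strand). NLaz measured 11.1 and 4.18 CPM in FneWT and 47.8 and 21.5 CPM in ElavWT, and both ElavWT libraries lay above the 6 others. Rbp9WT held 15.3 and 7.37 CPM and untreated cells 0.139 and 0 CPM. The log2 difference of FneWT from ElavWT was -2.11 ± 0.42 (SE; limma adjusted p = 0.0276), and it was of nearly the same size in replicate 1 (-2.15) and replicate 2 (-2.10).

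The other large falls did not pass in the 8-library fit, and their calls turned on the libraries fitted. The Wnt ligand gene Wnt6 measured 953 and 53.7 CPM in FneWT and 1613 and 814 CPM in ElavWT, so its log2 difference of -2.37 ± 0.81 came mostly from FneWT replicate 2 (-0.89 in replicate 1 and -3.88 in replicate 2; limma adjusted p = 0.595). With the 4 compared libraries alone Wnt6 did not pass either (SE 1.14, limma adjusted p = 0.741). Its log2 difference was -3.64 without FneWT replicate 1 and -3.10 without ElavWT replicate 1. Leaving out Rbp9WT replicate 1 or 2 kept it at -2.37, with a smaller SE of 0.40. Wnt6 passed in each of these fits with a library left out, all of which keep only 1 library in a group. Gr5a, a gustatory receptor gene for trehalose, measured 16.4 and 2.36 CPM against 49.5 and 15.1 CPM (-1.94 ± 0.45, adjusted p = 0.0936). CG5418 measured 0.870 and 0 CPM in FneWT and 17.6 and 1.49 CPM in ElavWT (adjusted p = 0.151), and the noncoding RNA CR45564 0.746 and 0.728 CPM against 10.6 and 2.98 CPM (adjusted p = 0.167). For the last pair both ElavWT libraries lay above both FneWT libraries, beside 6.48% of all tested genes. Both were chosen for the size of their fall between these same libraries, so this is a description only. CG5418 and lncRNA:CR45564 entered the test only through their ElavWT levels. Their p-values here and below are thus no independent support for a difference. With the 4 compared libraries alone Gr5a, CG5418 and lncRNA:CR45564 passed at the same differences (limma adjusted p = 0.00395, 0.00395 and 0.0135). Gr5a and CG5418 also passed in edgeR (adjusted p = 0.0376 and 0.0188) and DESeq2 (0.0102 and 0.0159) with the replicate term. Each of these genes was under 2 CPM in both untreated libraries, apart from Wnt6 at 824 and 314 CPM.

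Levels in the other groups place these genes differently. All of the following contrasts share libraries with FneWT minus ElavWT and are given as values side by side. Of all genes 15.2% passed higher and 1.97% lower in FneWT than in untreated cells, and 9.18% and 1.13% in ElavWT. Against untreated cells St4 had log2 differences of 4.52 in FneWT and 2.89 in ElavWT (adjusted p = 1.49e-10 and 2.34e-07 in the same limma fit). CG14984 had 4.10 and 1.17, and NLaz 2.58 and 4.69. SmydA-5 had 2.48 in FneWT and -0.36 in ElavWT, gce 1.17 and -0.44, and Pebp1 1.08 and -0.63. Only the first value passed for SmydA-5, gce and Pebp1 (adjusted p = 0.000815, 0.00165 and 0.00614 in FneWT, and 0.933, 0.757 and 0.531 in ElavWT). Oat passed in neither (0.37 and -1.04, adjusted p = 0.113 and 0.0944).

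The 17 genes were chosen for their difference between FneWT and ElavWT, and the contrasts with Rbp9WT reuse those libraries, so the values that follow are a description only. Their log2 differences of FneWT from Rbp9WT ran from -0.31 for Pebp1 to 2.30 for CG14984, with a median of 0.45, and the adjusted p of CG14984 was the lowest at 0.109. Their differences of Rbp9WT from ElavWT ran from 0.55 for babos to 2.71 for mthl15. Of all genes 0.56% passed higher and 0.0323% lower in Rbp9WT than in ElavWT. A p that misses the threshold does not show that Fne and Rbp9 cells were alike in these genes.

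Position on the genome was read next. The 18 genes were spread over chromosome arms 2L (5), 2R (4), 3L (4), 3R (4) and X (1), and 7 of them overlap another annotated gene. No source used here says whether counting used strand, so reads of overlapping genes may not be separable. Within 2000 bases of St4 lies CG18568, on the same strand and 62 bases away, which measured 80.5 and 25.3 CPM in FneWT and 30.6 and 11.9 CPM in ElavWT (log2 difference 1.16 ± 0.35, limma adjusted p = 0.234). PheRS-m, 8 bases from St4 on the other strand, had 0.46 ± 0.29. Near CG14984, CG12605 had 1.10 ± 0.48 (adjusted p = 0.541). Of the 33 tested genes within 2000 bases of the 18, 0 passed in limma, with 2 (CG18568 and CG12605) at an unadjusted p under 0.05. Of all tested genes 7.79% reached that p, 5.63% higher in FneWT and 2.16% lower. Beyond 1 standard error 12 of the 33 were higher in FneWT and 2 lower, and 19 lay within it. The share of all genes beyond 1 standard error was not counted, so these counts show no effect of position. Among the 12 were the neurexin gene Nrx-1 near Pebp1 (0.72 ± 0.37), Top1 near gce (0.46 ± 0.31), and Hml and dysc near CG8745 (0.61 ± 0.54 and 0.50 ± 0.41). Among the 19 were CG6770 near CG6785 (0.18 ± 0.30), Ars2 near SmydA-5 (0.05 ± 0.31), eEF1delta near mthl15 (-0.23 ± 0.30) and Roe1 near link (0.03 ± 0.28).

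Across all genes the difference between the proteins was only weakly shared by the replicates. The FneWT minus ElavWT differences of replicates 1 and 2 correlated over the 9291 genes at Pearson r = 0.204 and Spearman rho = 0.171. These genes share 4 libraries and are not independent. The SD of the difference over genes was 0.56 log2 units in replicate 1 and 0.66 in replicate 2. Relative to the median gene, 55.4% of genes lay on the same side in both replicates. A difference of at least 1 log2 unit in both was seen in 99 genes higher in FneWT (1.07%) and in 36 lower (0.387%). The difference in replicate 1 correlated at r = 0.246 with the contrast of replicate 1 and replicate 2 in the untreated and Rbp9WT libraries, and that in replicate 2 at -0.046. The part of this replicate contrast in the results was not tested.

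**Figure D4:**
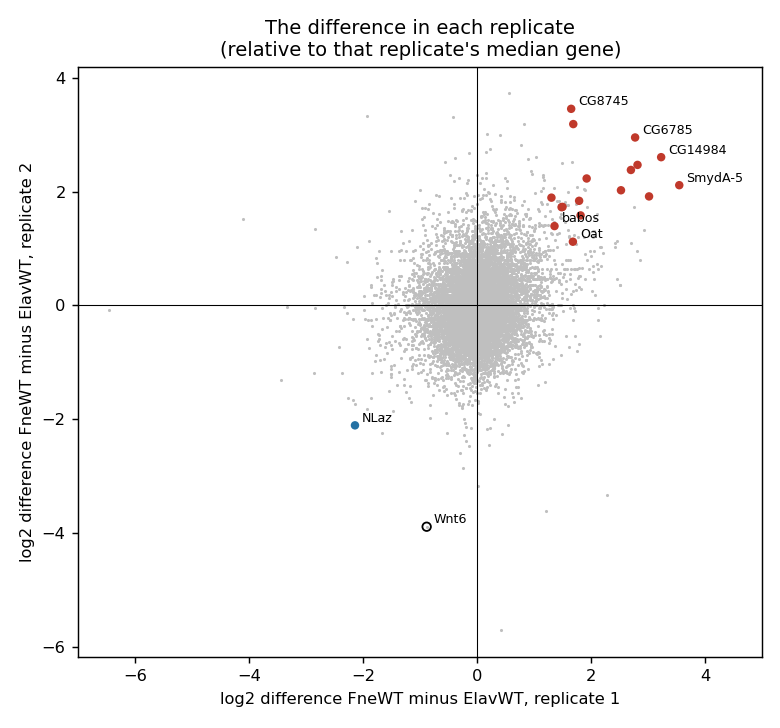
Log2 difference FneWT minus ElavWT in replicate 1 (horizontal) and in replicate 2 (vertical) for each tested gene, each relative to its replicate's median gene. The 17 genes that passed higher are red, NLaz is blue, and Wnt6 (open circle) lies at -0.89 and -3.88.

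Among gene lists tied to the proteins' known function, no member passed in the 8-library fit, beside 0.194% of all tested genes. With so small a share, a list without a passing member is no result about that list, here and below. The list of ELAV targets and genes with neural 3' UTR extensions had 47 tested members, a median log2 difference of 0.37 and 36 members above the median gene. Relative to the median gene 22 (46.8%) lay above it in both replicates and 8 below, beside 27.7% of all genes each way. The list's median was 0.05 in replicate 1 and 0.53 in replicate 2, and it ran from 0.04 without ElavWT replicate 2 to 0.64 without ElavWT replicate 1. stai, the fly stathmin gene, measured 213 and 323 CPM in FneWT and 132 and 127 CPM in ElavWT, against 278 and 244 CPM in untreated cells (0.97 ± 0.30, limma adjusted p = 0.236). mei-P26, which encodes a TRIM-NHL protein that represses translation, measured 640 and 418 CPM in FneWT and 387 and 230 CPM in ElavWT, and both were above the 92.6 and 101 CPM of untreated cells (0.75 ± 0.31, adjusted p = 0.478). For both genes the FneWT libraries were above the ElavWT libraries.

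No neuron marker passed in the 8-library fit, beside 0.194% of all tested genes. The summed level of the 36 neuron markers was 2450 and 1478 CPM in FneWT and 2500 and 1225 CPM in ElavWT, and the 35 tested had a median log2 difference of 0.24. The active zone gene Rim measured 67.2 and 15.8 CPM in FneWT and 40.6 and 5.54 CPM in ElavWT (1.00 ± 0.36, limma adjusted p = 0.398). No neural transcription factor passed among 24, and their median of 0.35 became -0.04 without ElavWT replicate 2 and 0.54 without ElavWT replicate 1. The zinc finger gene jim (380 and 489 against 260 and 209 CPM) was higher in both FneWT libraries and the LIM homeobox gene Lim3 (17.8 and 13.1 against 21.1 and 43.7 CPM) was lower, at adjusted p = 0.45 and 0.478. The teneurin gene Ten-m, with 267 and 316 CPM against 155 and 119 CPM, had the largest of the differences toward FneWT among the 39 tested genes of axon adhesion and guidance at an unadjusted p under 0.05, without passing (1.05 ± 0.34, adjusted p = 0.258, list median 0.17). In the same list klg, which encodes an immunoglobulin-family adhesion protein, measured 36.7 and 4.73 CPM in FneWT and 37.1 and 31.1 CPM in ElavWT (-1.29 ± 0.43, adjusted p = 0.411), a difference of replicate 2. The 29 channel genes had a median of -0.0045. Their acetylcholine receptor subunit gene nAChRalpha2 measured 8.57 and 8.37 CPM in FneWT and 9.30 and 44.7 CPM in ElavWT, so ElavWT replicate 2 stood alone.

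In the 8-library fit markers of other cell types did not pass either, apart from NLaz in the list of fat body and secreted carrier genes. Its 22 tested members had a median of 0.16. The chitinase-like growth factor gene Idgf5 (1.24 and 1.45 against 6.48 and 6.60 CPM) was low in both FneWT libraries without passing (-1.73 ± 0.49, limma adjusted p = 0.224). With the 4 compared libraries alone Idgf5 passed (limma adjusted p = 0.0308). The 24 tested hemocyte markers had a median of 0.23, and 5 of them were higher at an unadjusted p under 0.05, beside 5.63% of all genes. The phagocytic receptor gene NimC4 measured 61.0 and 35.1 CPM in FneWT and 14.9 and 22.2 CPM in ElavWT (1.26 ± 0.37, adjusted p = 0.228). The papilin gene Ppn measured 65.9 and 14.4 against 19.7 and 6.39 CPM (adjusted p = 0.639). Ppn passed with the 4 compared libraries alone (limma adjusted p = 0.0468). Both FneWT libraries were above both ElavWT libraries for 3 of the 24 and below for 1, beside 8.0% and 6.48% of all genes. The 1 below was PPO2, at 23.9 and 9.82 against 32.3 and 25.3 CPM. The summed hemocyte level was 2816 and 1971 CPM in FneWT and 2264 and 1418 CPM in ElavWT. Mef2, the muscle transcription factor, measured 131 and 46.9 against 51.6 and 20.2 CPM (1.21 ± 0.45, adjusted p = 0.465). The muscle marker Mf went the other way, at 882 and 772 against 1195 and 1056 CPM. The 21 germline and piRNA genes had a median of 0.03 and none at an unadjusted p under 0.05.

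Stress, immune and signalling genes showed no passing member. The matrix metalloproteinase gene Mmp1, a target of JNK signalling, had the lowest adjusted p of those named. It measured 372 and 59.7 CPM in FneWT and 160 and 18.5 CPM in ElavWT, from 10.3 and 3.08 CPM in untreated cells (1.38 ± 0.33, limma adjusted p = 0.0798). Mmp1 passed with the 4 compared libraries alone (adjusted p = 0.0135) and in DESeq2 with the replicate term (0.0206). The small heat shock gene Hsp67Bc (19.3 and 9.46 against 7.19 and 2.98 CPM) was higher in both FneWT libraries, with adjusted p = 0.287. The glutathione transferase gene GstD5 (5.72 and 0.910 against 20.3 and 2.77 CPM) was lower within each replicate number, with adjusted p = 0.464. The 22 tested immune genes had a median of -0.07, with vir-1 at 184 and 241 CPM in FneWT and 127 and 105 CPM in ElavWT (adjusted p = 0.382). Of 49 developmental signalling genes 26 (53.1%) lay above the median gene in both replicates and 3 below (median 0.24). sty, the Sprouty antagonist of receptor tyrosine kinase signalling, measured 950 and 1714 against 567 and 810 CPM (0.87 ± 0.35, adjusted p = 0.464). nrv3, a beta subunit gene of the sodium pump, measured 137 and 57.5 against 66.0 and 27.1 CPM (1.01 ± 0.29, adjusted p = 0.196), from 6.60 and 2.94 CPM in untreated cells.

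No gene of the ribosomal protein and translation factor lists passed. Of 88 cytosolic ribosomal protein genes 49 (55.7%) were below the median gene in both replicates and 1 above, with a list median of -0.25 (-0.35 in replicate 1 and -0.20 in replicate 2). This median ran from -0.55 without FneWT replicate 2 to -0.04 without FneWT replicate 1, with -0.13 without ElavWT replicate 2 and -0.39 without ElavWT replicate 1. Their summed level was 98057 and 202719 CPM in FneWT and 116159 and 242035 CPM in ElavWT, so replicate number separated the libraries more than the protein did. The 34 translation factors had a median of -0.23, and the 41 oxidative phosphorylation genes -0.21. The 71 mitochondrial ribosomal protein genes had 20 members above and 20 below the median gene in both replicates, and medians of -0.05 over both, 0.17 in replicate 1, -0.29 in replicate 2 and 0.27 without ElavWT replicate 2. Without ElavWT replicate 2 the median of the oxidative phosphorylation genes was 0.06 and that of the translation factors -0.08, and without ElavWT replicate 1 the former was -0.49. RpS21 was an exception among ribosomal protein genes, at 513 and 955 CPM in FneWT and 297 and 358 CPM in ElavWT (1.06 ± 0.34, limma adjusted p = 0.261).

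RNA-processing genes gave small differences. The 19 cleavage and polyadenylation factors had a median of -0.09 and none at an unadjusted p under 0.05. Of these, 9 (47.4%) lay below the median gene in both replicates and 0 above, beside 27.7% of all genes each way. The 41 splicing regulators and hnRNP genes had a median of 0.02. HnRNP-K, a gene for an RNA-binding protein of the KH type, was the most abundant gene of every replicate 1 library and measured 60456 and 2694 CPM in FneWT and 68413 and 16437 CPM in ElavWT (-1.43 ± 0.55, limma adjusted p = 0.478). The CELF-family gene bru1, with 3611 and 240 against 3922 and 1762 CPM, followed the same pattern (adjusted p = 0.478). In every group both genes were lower in replicate 2 than in replicate 1, and FneWT replicate 2 was the lowest of the 8 libraries. The 14 miRNA and siRNA machinery genes (median 0.06), the 44 cell cycle genes (0.03) and the 18 muscle genes (0.19) held no passing member, as did the 21 glia and epithelial markers (0.41), the 31 stress genes (-0.05), the 30 JAK/STAT and JNK genes (0.09), the 23 translational repressors (0.23), the 14 sodium pump and septate junction genes (0.06) and the 10 tested rRNA-named genes (0.12). Of the 25 lists with at least 10 tested members, 13 had a median that changed sign when 1 of the 4 compared libraries was left out, so these medians give no direction. The 13 are those of neural transcription factors, channels, germline, stress, immune, JAK/STAT and JNK, cell cycle, oxidative phosphorylation, splicing, miRNA, sodium pump, mitochondrial ribosomal protein and rRNA-named genes.

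**Figure D5:**
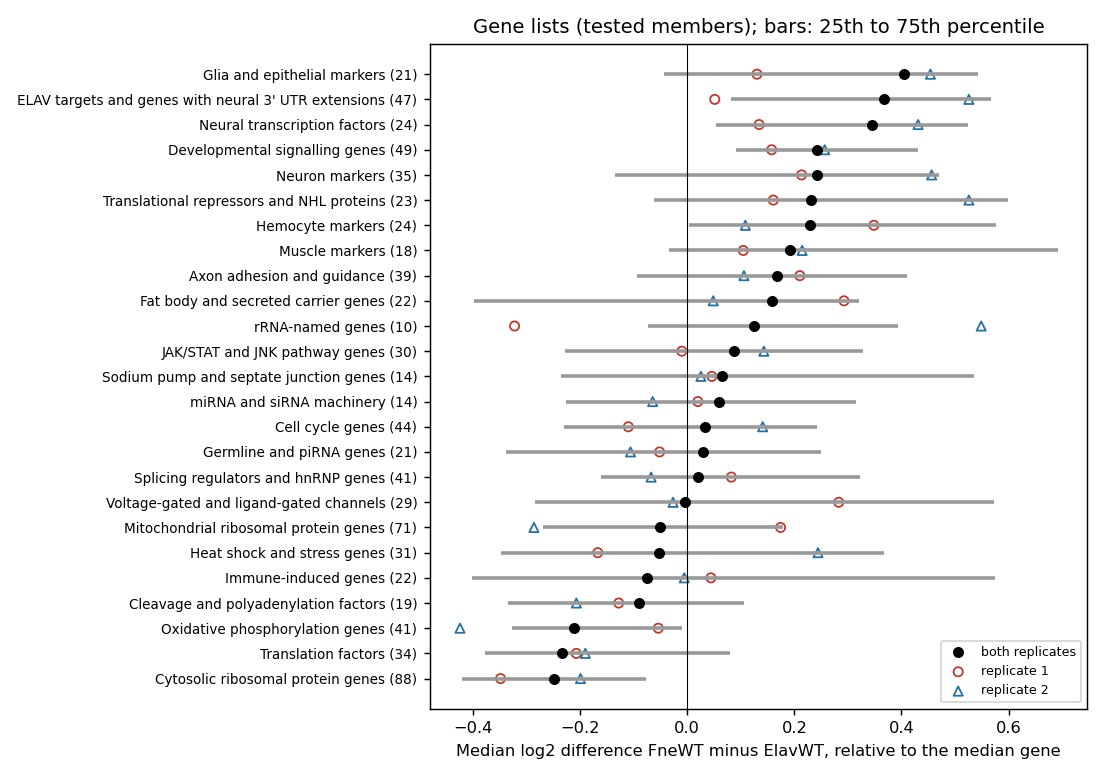
Median log2 difference FneWT minus ElavWT relative to the median gene for each gene list with at least 10 tested members (black points, with bars from the 25th to the 75th percentile of the members), and the same median in replicate 1 (open circles) and replicate 2 (open triangles). The 88 cytosolic ribosomal protein genes are lowest at -0.25 and the 21 glia and epithelial markers highest at 0.41, and the rRNA-named genes have -0.32 in replicate 1 and 0.55 in replicate 2.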

How the data were processed

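The deposited table holds 1 CPM value per gene and library, as the authors made it, and no source used here names the aligner, the counter or the use of strand. The submitters' processing notes name dm6 as build. A gene's poly(A) sites are not separated in these values. Identifiers were matched to the Ensembl BDGP6 annotation for 13684 of 13777 genes.

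The 9291 genes averaging 1 CPM or more in the 4 FneWT and ElavWT libraries entered limma 3.58.1 (R 4.3.3) as log2(CPM + 1). The fit held 8 libraries (untreated, ElavWT, FneWT, Rbp9WT), with group and replicate number as terms and 3 residual degrees of freedom. The threshold was a Benjamini-Hochberg adjusted p of 0.05. The replicate number is in the fit because the comparison is made within it. Same-numbered libraries deviated together (r = 0.547 to 0.867 over 6 pairs of groups), so the pairing rests on these data, not on the labels. Log2 differences are relative to the median gene, while p-values test the unshifted difference. A fold on this scale understates the change of low genes. Whole reads were recovered from the CPM steps (100% of values within 0.01 of a read) and given to edgeR 4.0.16 and DESeq2 1.42.0 as alternatives. The procedure was tested on simulated data with a spread set in advance and equal for all genes, so that test does not measure false calls in these data. Python 3.11.15 with pandas 2.3.3 and matplotlib 3.10.9 made tables and figures.

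The genes named are the 12 passing genes with the largest rise and the 5 most abundant that rose, the 5 with the largest fall at an unadjusted p under 0.05 (since fewer than 5 passed), and elav, fne and Rbp9. The examples from gene lists are up to 2 per direction with the largest difference at an unadjusted p under 0.05, a choice made after their values were seen. The markers PPO2 and Mf are given beside them as members lower in both FneWT libraries. Members and lists were chosen with earlier results of these data known.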

Additional observations from a re-analysis of the deposited data

How the results depend on the processing

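Without the replicate block 0 genes passed in limma (0 higher, 0 lower), and the same 0 in edgeR, the latter fit being chosen after the data were seen. With the 4 compared libraries alone 81 passed (67 higher, 14 lower, 1 residual degree of freedom). Without the filter on low values 0 passed (0 higher, 0 lower), with 853 at an unadjusted p under 0.05. With the replicate block edgeR passed 6 lower genes, and DESeq2 32 genes of which 8 were lower. A pseudocount of 0.25 and a filter of 5 CPM each left 0 lower genes, as NLaz no longer passed. Leaving out each library in turn, the count ran from 1 to 136, with 0 to 113 higher and 1 to 23 lower, and the log2 difference of Rbp9 from -0.26 to 0.48. The causes were not tested. Median-ratio and TMM scaling, removal of the rRNA-named genes, a pseudocount of 0.5 and a filter over 8 libraries passed 16 to 19 genes, sharing 16 to 18 with the 18. No setting reversed the direction of any of the 18, which their like direction in both replicates favours, as every setting reuses these libraries. At these depths a gene under 0.639 CPM in the shallowest library rests on fewer than 3 reads.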

Other observations

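Some abundant transcripts differed strongly in 1 replicate only (genes chosen after their values were seen). Among the 1399 genes averaging 100 CPM or more, 7 were at least 4-fold lower in FneWT than in ElavWT in replicate 2 and 5 in replicate 1, relative to the median gene, while 1 was at least 4-fold higher in replicate 2 and 0 in replicate 1.

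The 7 of replicate 2 are CG46304, Wnt6, bru1, HnRNP-K, the PAPS synthase gene Papss, the ADAM-family gene mmd and the immunoglobulin-superfamily gene DIP-lambda. CG46304 measured 1.09 CPM in FneWT, 108 CPM in ElavWT, 14.0 CPM in untreated cells and 13.1 CPM in Rbp9WT in replicate 2, so ElavWT replicate 2 was the highest and FneWT replicate 2 the lowest. In replicate 1 it measured 321, 220, 250 and 328 CPM in that order. Papss measured 187, 987, 577 and 420 CPM in replicate 2 in that order, and 2379, 2489, 1722 and 2840 CPM in replicate 1. HnRNP-K was 22.4-fold higher in replicate 1 than in replicate 2 of FneWT, and 4.04-fold, 4.16-fold and 5.65-fold higher in untreated, ElavWT and Rbp9WT cells. None of the 7 passed over both replicates (limma adjusted p from 0.465 to 0.818).

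The 5 of replicate 1 are arg, lncRNA:CR45668, the GABA receptor gene Rdl, CG44774 and the cell adhesion gene Con. ElavWT replicate 1 was the highest of the 8 libraries for 4 of them, at 410, 6652, 364 and 1138 CPM. For Con it measured 459 CPM, below the 1220 CPM of Rbp9WT replicate 1. The gene FBgn0037636 was the 1 higher in replicate 2, at 1840 CPM in FneWT and 421 CPM in ElavWT.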
